A study of Homo sapiens with 6 samples.

Results

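The cytoplasmic ribosomal proteins are the proteins that, with ribosomal RNA, make up the ribosome of the cytoplasm. Their genes were chosen by symbol alone, as RPL, RPLP, RPS and RPSA names with a number, together with divergent or near-identical copies. These copies are RPL22L1, RPL26L1, RPL36AL, RPL39L, RPL7L1 and RPS27L. The rule gave 81 of the 15059 genes measured, 51 of the large subunit and 30 of the small one. All 81 passed the filter on low values and were tested. FAU and RACK1, which also encode or join ribosomal subunits, are outside this naming rule and are described with the related genes. Pseudogenes and readthrough transcripts carry other names and are left out.

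RNA sequencing of total RNA, depleted of ribosomal RNA, was done on NOMO-1 cells, an established line from human acute myeloid leukaemia with monocytic features, in 3 groups of 2 libraries. Control cells carried an empty vector (EV) and a non-targeting guide (sgNS), knockout cells carried the empty vector and a guide against METTL16 (sgMETTL16), and rescue cells overexpressed METTL16 (OE-METTL16) before they received sgMETTL16. Every group was transduced with virus and kept in 2 µg/ml of puromycin for 1 to 2 weeks, so the controls share both treatments. METTL16 encodes an enzyme that methylates adenosine in RNA, including the U6 spliceosomal RNA and the MAT2A transcript. Only this line was used, nothing states that the 2 libraries of a group are separate cultures, and p-values therefore measure the spread between these libraries only. The values, called the signal here, are RSEM abundances whose unit is not stated. They were treated as abundances per unit of transcript length, and levels are set side by side between genes on that basis. Library sums ran from 597160 to 681928, and the read depth is not given in the sources used here. METTL16 itself had a signal of 9.89 and 9.63 in control, 6.05 and 5.83 in knockout and 12.3 and 12.1 in rescue. Of 10 monocytic and myeloid marker genes 9 were listed (MPO was not), with sums of 279 to 298 in control, 458 to 460 in knockout and 343 to 350 in rescue, so these markers differed between the groups as well and their part in the results below was not tested. Erythroid markers were not listed (0 of 4), and the 2 listed lymphoid and 2 listed epithelial markers summed to at most 2.85 and 1.34.

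Each ribosome holds 1 copy of nearly every one of these proteins, and cells make them in matched amounts. Their messenger RNAs are among the most abundant of growing cells, and most begin at a cytosine followed by an unbroken tract of pyrimidines, the 5′ terminal oligopyrimidine (TOP) motif, through which mTORC1 and LARP1 control their translation and stability. Many of the genes also carry small nucleolar RNAs in their introns.

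The start sites of the members that stood furthest from the rest are shown first, because the tract at the start is the feature that the family shares. Each line gives 20 bases before the annotated start and the 10 bases that begin with it, on the strand of the gene (RefSeq, GRCh38.p14), with the longest run of C and T that touches the positions from 5 before to 5 after the start in capitals. The first 5 fell most among the members with a window, and the last 4 rose in knockout cells.
RPL22L1 (chr3:170870186-170870215, minus strand): gaccgcgcggccgtagCTTCCTCTCTgctc
RPS12 (chr6:132814549-132814578, plus strand): ggcatgcgtgcggatgaggCCTCTTTCCCT
RPL13A (chr19:49487588-49487617, plus strand): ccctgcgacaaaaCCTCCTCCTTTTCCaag
RPLP0 (chr12:120201102-120201131, minus strand): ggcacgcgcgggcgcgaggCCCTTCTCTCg
RPL12 (chr9:127451397-127451426, minus strand): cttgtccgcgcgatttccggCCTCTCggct
RPL36AL (chr14:49620617-49620646, minus strand): tccgcctgTTTCTTCCCTTTCCTgttaggc
RPL10A (chr6:35468381-35468410, plus strand): gcgcatgcgcaagacatgctagTCTCTTTT
RPS15 (chr19:1438376-1438405, plus strand): ataactgcgcaggcgcggaCCaaagcgatc
RPS27L (chr15:63157468-63157497, minus strand): cccggaagttgatgCCgagcgcagatcgct
The runs are 10 bases long in RPL22L1, 11 in RPS12, 14 in RPL13A, 10 in RPLP0, 6 in RPL12 and 15 in RPL36AL. In RPL10A the run of 10 continues past the window, and in RPS15 and RPS27L it is 2 bases long. Of the 65 members with a window, 47 (72.3%) had a run of at least 8 there, against 11.2% of the 9676 windows of other protein-coding genes in the table. The annotated start base was C in 70.8% of the members and in 11.5% of the other genes.

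Ribosomal protein messenger RNAs were among the most abundant in every library. They held 8.08% to 9.28% of the summed signal, 26 of the 50 highest genes were members, and so were 66 of the 200 highest. The 4 highest genes of all held 32.7% of the signal in knockout replicate 2 and 36.7% to 37.7% in the other libraries. With these 4 left out, the members held 14.2% and 14.7% in control, 12.8% and 12.9% in knockout and 14.4% and 14.3% in rescue. By mean over the 6 libraries, 18 members had a signal of 1000 to 2000, 39 of 500 to 1000, 9 of 200 to 500, 10 of 50 to 200 and 5 below 50. RPL39, a small protein of the large subunit's peptide exit tunnel, had the highest signal, at 1728 and 1687 in control, 1530 and 1609.6 in knockout and 1751 and 1710.4 in rescue. At the low end stood RPL26L1 with a control mean of 14.6 ± 0.949 (SD, n = 2), RPL39L with 24.1 and 21.6 in the control libraries, and RPS29 with 23.3 and 23.7. The first 2 of these are divergent copies, whereas RPS29 encodes a core zinc-binding protein of the small subunit. The longest annotated transcript of RPS29 has 7062 bases, and 32 annotated pseudogenes carry its name. Their part in its low signal was not tested. Level had a Spearman's rho of -0.30 with longest transcript length and of 0.14 with the number of named pseudogenes across the 81 members. Across the 81 members, which share their libraries, the level and the log2 change in knockout had a Pearson's r of 0.0020 and a Spearman's rho of -0.17, given as a description.

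The comparison of knockout with control asked how the messenger RNAs of the ribosome differed where METTL16 was targeted. In knockout cells 45 of the 81 members fell (limma, adjusted p under 0.05), 4 rose and 32 did not pass. That is 55.6% fallen and 4.94% risen, against 13.5% and 26.2% of all 12734 genes tested. The median log2 change of the members was -0.15 and that of all genes 0.067. Of the 81, 73 had a log2 change below 0, and the range ran from -0.97 to 0.23. Both knockout libraries lay below both control libraries for 68 members (25.1% of all genes tested), above both for 5 (43.4%), and 8 overlapped. The summed signal of the members was 60078 and 57460.1 in control and 52457 and 51967 in knockout. Fewer cells of a kind and less RNA per cell cannot be told apart in such bulk libraries.

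Large and small subunit messenger RNAs had medians close to each other. Of the large subunit, 29 of 51 fell (56.9%) and 2 rose, with a median log2 change of -0.15. Of the small subunit, 16 of 30 fell (53.3%) and 2 rose, with a median of -0.14. The difference of the medians was -0.0091 (large minus small, log2) and lay between -0.018 and 0.0052 when any 1 library was left out. The ratio of the summed signals, large to small, was 1.543 and 1.568 in control, 1.533 and 1.536 in knockout, and 1.547 and 1.527 in rescue. Both knockout ratios thus lay below both control ratios, by little, and the rescue ratios overlapped with those of both other groups.

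**Figure D1:**
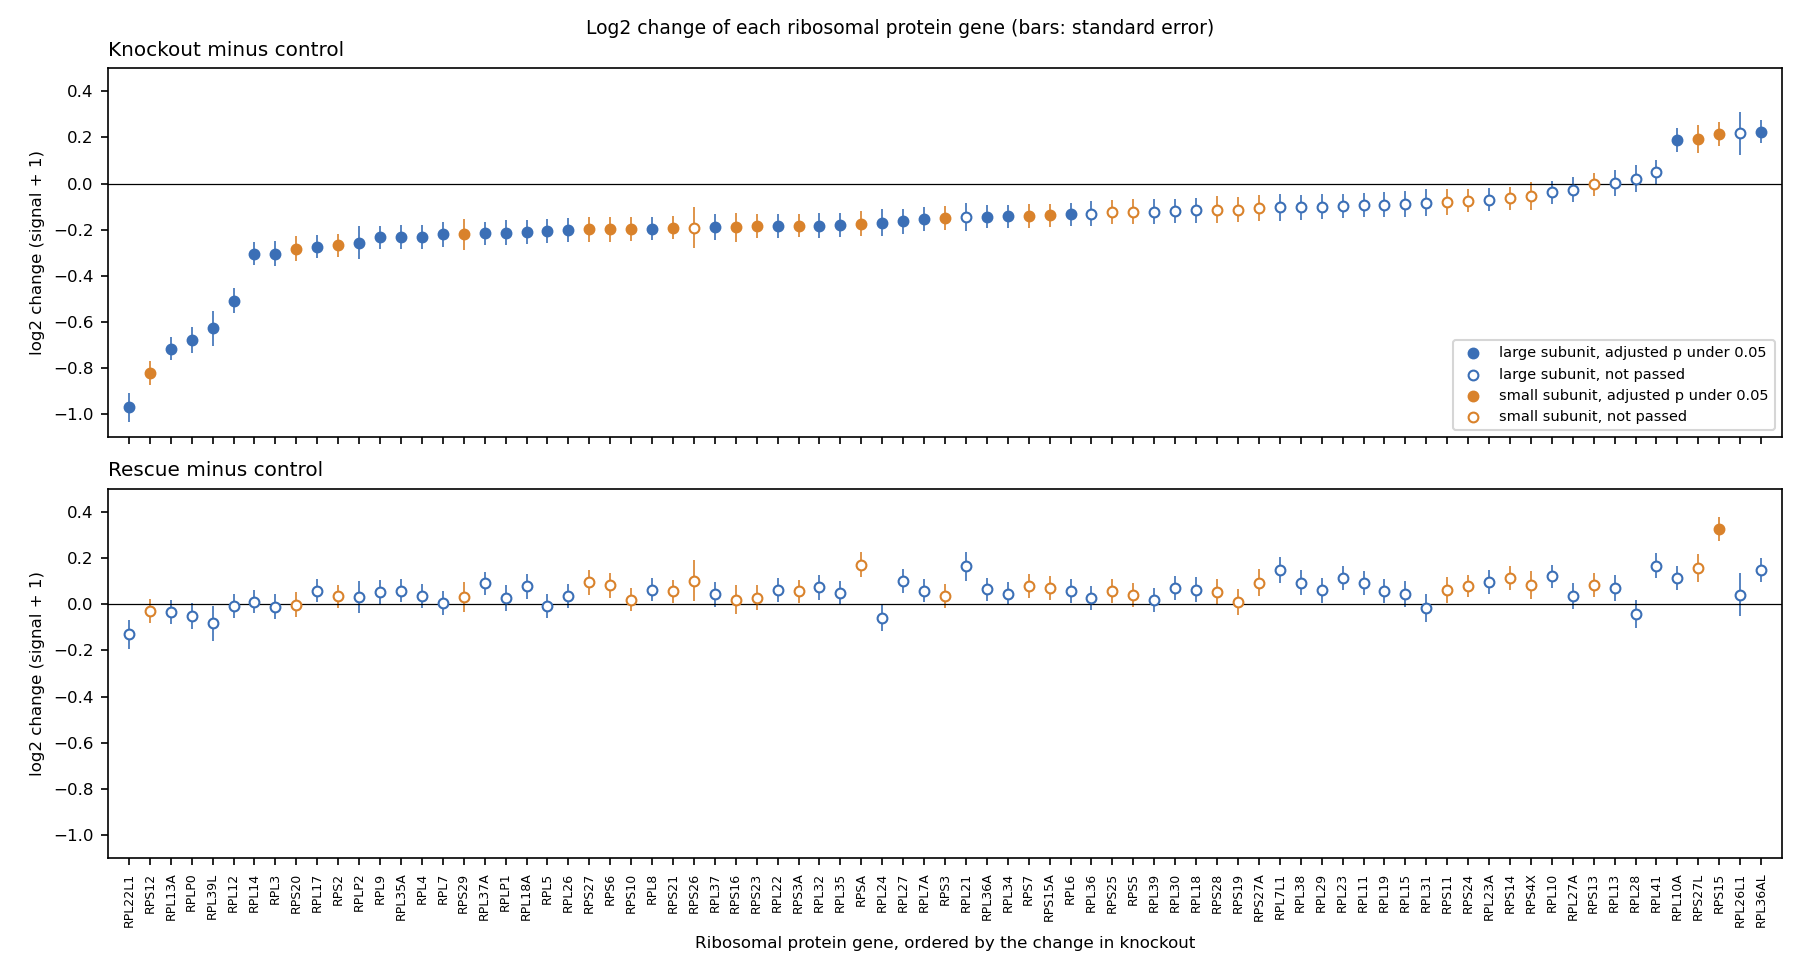
Log2 change of the signal (plus 1) for 79 of the 81 members, ordered by the change in knockout, with the standard error as bars. The upper panel shows knockout minus control and the lower panel rescue minus control; filled points passed limma at an adjusted p under 0.05. In the upper panel 6 members lie at -0.51 or below, most lie between -0.31 and 0, and 5 lie at 0.19 or above; in the lower panel all but RPS15 are open.

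How much of the family's shift is seen depends on how libraries are put on 1 scale. Centred on the median of all tested genes, 65 members fell and 3 rose, against 25.2% and 24.2% of all genes. With equal sums over the protein-coding genes outside the family 64 fell and 3 rose, against 21.8% and 28.1%. Under quantile normalization 22 fell and 15 rose, shares close to those of all genes (25% and 24.7%), and the members' median was -0.017. That method gives each library the same set of values, and the members are 46 of the 100 highest genes. The part of this in the difference between the scalings was not tested. Control replicate 2 stood lower than the rest (median log2 deviation over all genes -0.10, against 0.0024 to 0.040); without it 53 members fell and 4 rose, and without control replicate 1 32 fell and 4 rose. Leaving out knockout replicate 2 left 28 fallen and knockout replicate 1 30 fallen and 2 risen. Fitted without a trend of the variance with the level, limma called 18 fallen and 2 risen, against 1545 and 3166 of all 12734 genes tested. The fits without 1 library keep only 1 library in that group. Their counts are not set against those of all genes, so they do not separate a loss of power from a change of the family.

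**Figure D2:**
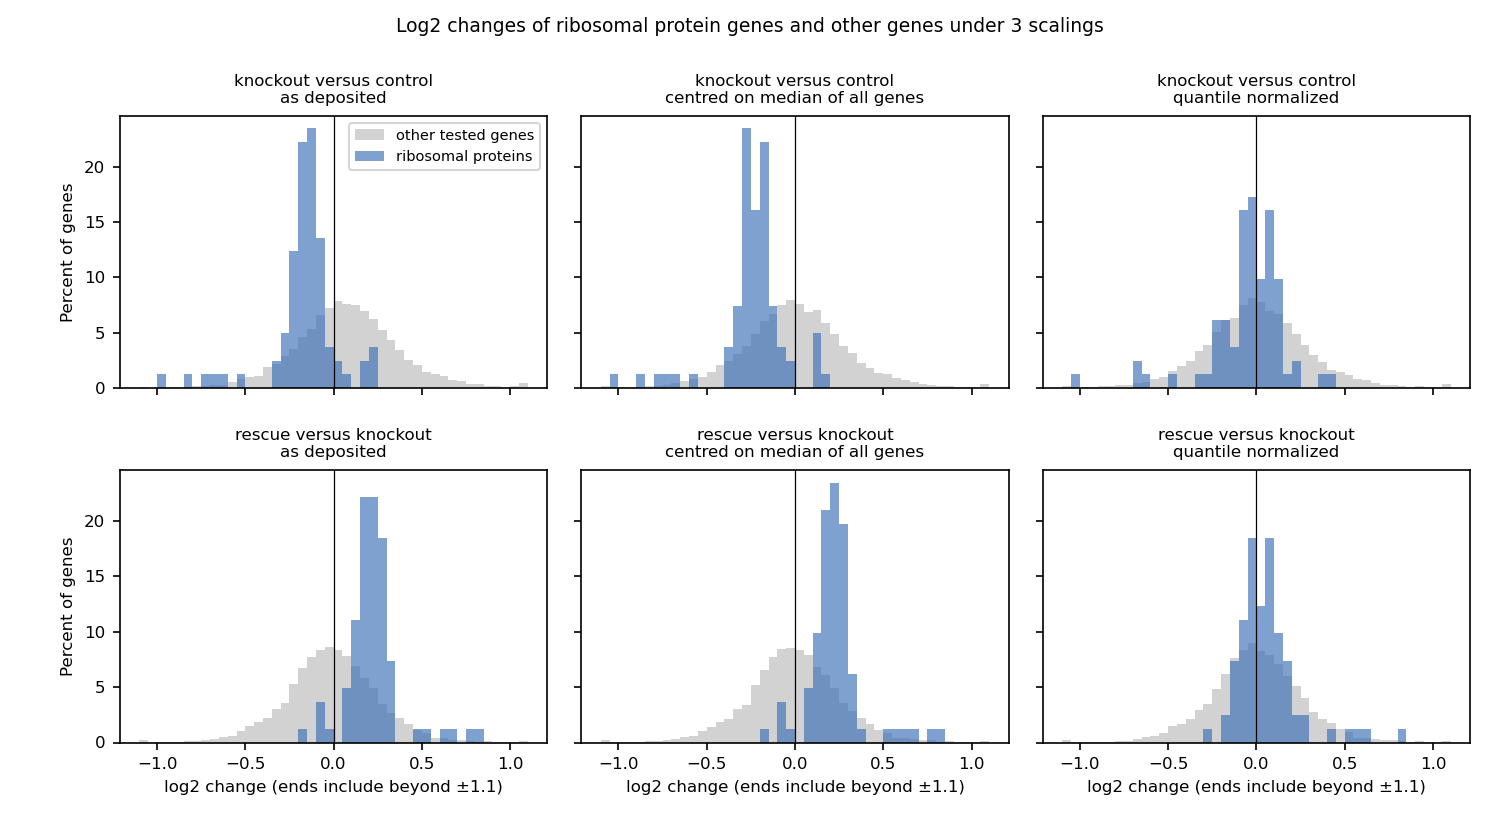
Percent of genes by log2 change for the members (blue) and all other tested genes (grey), for knockout versus control (top) and rescue versus knockout (bottom), with the values as deposited, centred on the median of all genes, and quantile normalized. The members form a narrow peak below 0 in knockout and above 0 in rescue with the first 2 scalings, with medians of -0.15 and -0.22 in knockout; under quantile normalization the peak lies near 0, with a median of -0.017, and 22 members fell while 15 rose.

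A small number of members moved much more than the family. RPS12, a protein of the beak of the small subunit, had a signal of 979 and 926 in control, 544 and 534 in knockout and 910.1 and 955 in rescue. The knockout libraries lay well below the other 4, at 0.566 of control (log2 -0.82, SE 0.053, limma adjusted p = 1.04e-07). RPL13A, a large subunit protein also known from the interferon-γ translation control complex, had 556 and 529 in control, 338 and 322 in knockout and 528 and 532 in rescue. Knockout stood at 0.608 of control (log2 -0.72, SE 0.052, limma adjusted p = 3.09e-07). RPLP0, the anchor of the stalk that recruits elongation factors, had 1006 and 956 in control, 640.3 and 587 in knockout and 933 and 960.2 in rescue, a ratio of knockout to control of 0.626 (log2 -0.68, SE 0.056, limma adjusted p = 1.10e-06). In none of these 3 genes did knockout overlap with either other group, while rescue and control overlapped.

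RPL12, which sits at the base of the stalk beside RPLP0, had 1165 and 1079 in control, 790.5 and 786 in knockout and 1120.3 and 1109.6 in rescue. Its knockout level was 0.703 of control (log2 -0.51, SE 0.053, limma adjusted p = 8.71e-06). RPL22L1, the copy of RPL22, was far less abundant and fell most, from 37.4 and 36.5 in control to 18.4 and 18.3 in knockout, with 33.7 in both rescue libraries. That is 0.497 of control (log2 -0.97, SE 0.063, limma adjusted p = 1.05e-07). RPL39L, the copy of RPL39, had 24.1 and 21.6 in control, 14.5 and 14.4 in knockout and 22.3 and 20.7 in rescue (ratio 0.631, log2 -0.63, SE 0.076, limma adjusted p = 2.74e-05). These 6 genes passed the test in the same direction under all 18 alternative settings. Next in size came RPL14 and RPL3, a large subunit protein close to the peptidyl transferase centre, both at a log2 change of -0.30, with limma adjusted p of 0.000304 and 0.000617; RPL3 missed the threshold under quantile normalization (log2 -0.08, limma adjusted p = 0.0522).

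**Figure D3:**
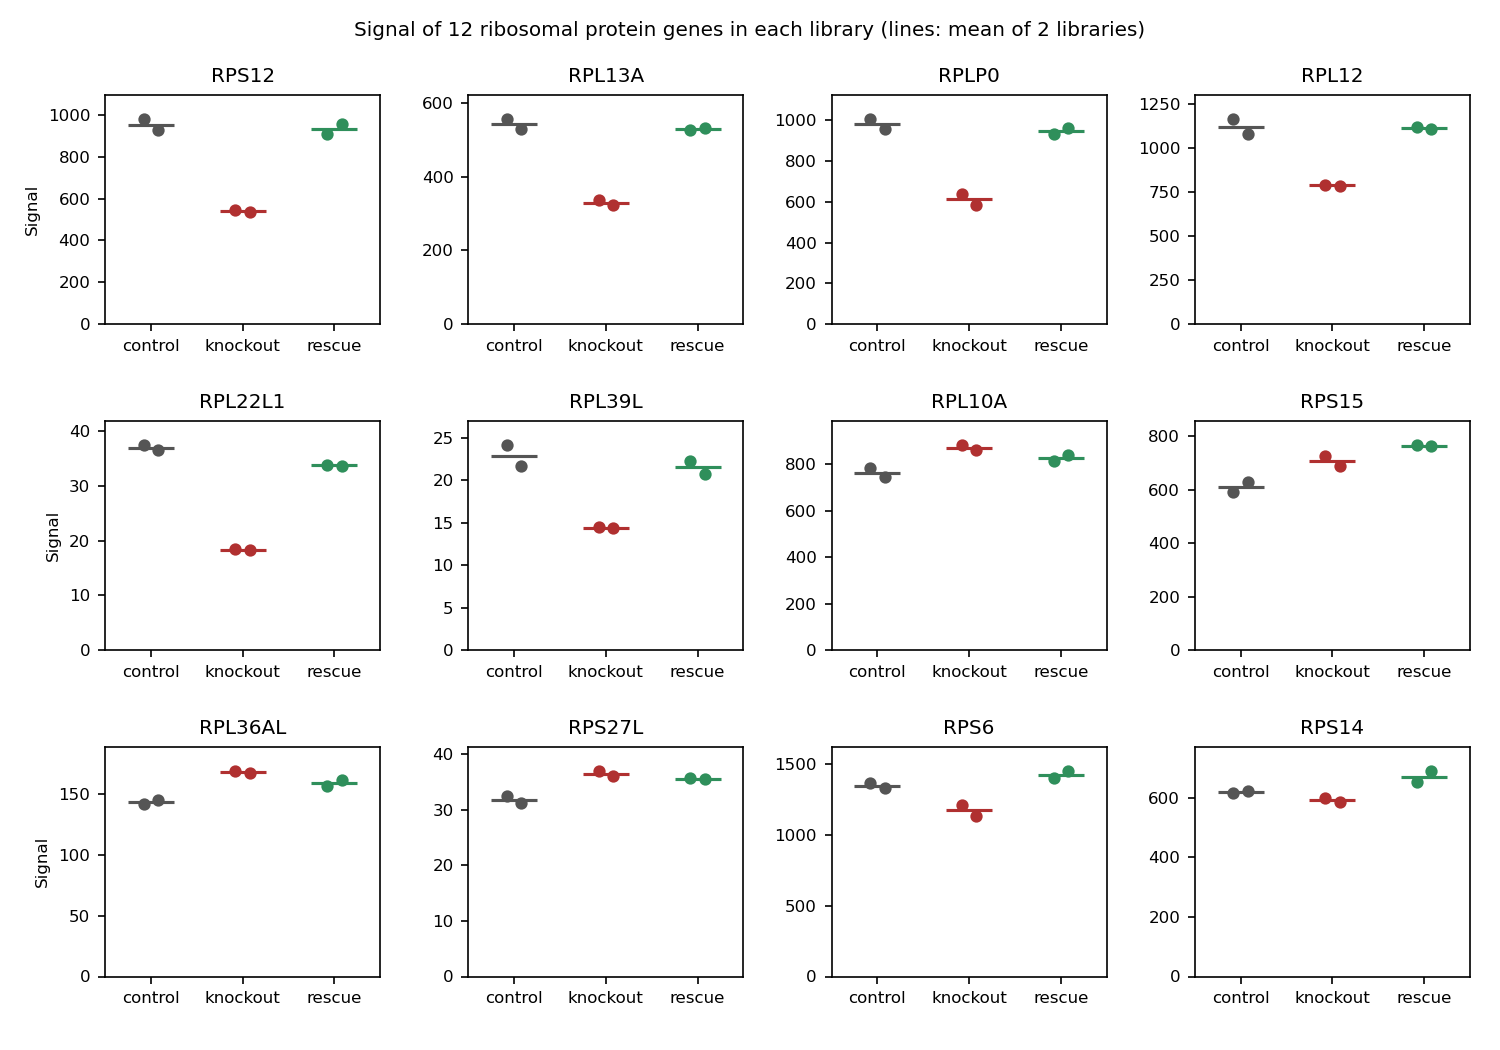
Signal in each of the 6 libraries for 12 members, with the mean of each group as a line and axes that start at 0. The knockout libraries of RPS12, RPL13A, RPLP0, RPL12, RPL22L1 and RPL39L lie below all 4 other libraries, those of RPL10A, RPL36AL and RPS27L lie above all 4, and RPS15 is lowest in control and highest in rescue.

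Part of the RPL13A reads cannot be assigned with certainty. RPL13AP5, a processed pseudogene nearly identical to RPL13A, was listed with a higher signal than its parent, 845 and 817 in control, 510.3 and 488 in knockout and 769 and 806 in rescue. The sum of the pair was 1401 and 1346 in control, 848 and 810.5 in knockout and 1297 and 1338 in rescue, so that knockout stood at 0.604 of control for the sum, 0.608 for RPL13A alone and 0.601 for RPL13AP5 alone. Listed were 26 pseudogenes named after members or, for RPS18P9, after RPS18, which was not analysed here. Of these 23 were tested, and in knockout 5 fell (21.7%) and 4 rose (17.4%), against 13.5% and 26.2% of all genes. Their median log2 change was 0.062. RPSAP58, a copy of RPSA, had 140.0 and 125 in control and 112 and 103 in knockout.

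Few members were higher in knockout cells. RPL36AL, a near-identical copy of RPL36A, had 142 and 145 in control, 169 and 167 in knockout and 157 and 162 in rescue (knockout at 1.17 times control, log2 0.23, SE 0.051, limma adjusted p = 0.00327). RPS15, which is needed for export of the small subunit from the nucleus, had 590.3 and 628 in control, 724 and 689 in knockout and 766 and 761 in rescue (ratio 1.16, log2 0.21, SE 0.053, limma adjusted p = 0.00556). RPL10A, which forms the mobile L1 stalk, had 784 and 745 in control, 882 and 860.4 in knockout and 814 and 839.6 in rescue (ratio 1.14, log2 0.19, SE 0.052, limma adjusted p = 0.0101). In each of the 3, both knockout libraries lay above both control libraries. RPS27L, a copy of RPS27, had 32.4 and 31.2 in control, 36.9 and 36.1 in knockout and 35.6 and 35.5 in rescue (log2 0.19, SE 0.061, limma adjusted p = 0.0223). RPL26L1 had a log2 change of 0.22 and did not pass (limma adjusted p = 0.0793). RPS15 did not pass after centring on the median of all genes (log2 0.15, limma adjusted p = 0.141) or with equal sums (0.0557), and RPL10A not without knockout replicate 1 (0.0612). RPS27L did not pass without either knockout library (limma adjusted p = 0.177 and 0.0979), nor without either rescue library (0.0637 and 0.0635).

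To set the members against each other, each library was also centred on its median member, a scale chosen after the values were seen. It moved the median change of all genes from 0.067 to 0.21, so changes on it are relative to the family. On this scale 13 members fell (8.57% of all genes tested did) and 11 rose (55.1%). Those that fell were RPL22L1, RPS12, RPL13A, RPLP0, RPL39L, RPL12, RPL14, RPL3, RPS20, RPL17, RPS2, RPL35A and RPL4. Those that rose were RPL23A, RPL27A, RPS13, RPL13, RPL28, RPL41, RPL10A, RPS27L, RPS15, RPL26L1 and RPL36AL. Of these, RPL13, RPS13, RPL28 and RPL41 were close to level on the deposited scale, with log2 changes of 0.00, -0.00, 0.02 and 0.05, where most of the family lay below 0. RPL13, for example, had 149.7 and 150.2 in control and 157 and 144 in knockout, and the groups overlapped.

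The ribosomal stalk, the arm that binds translation factors, is made of RPLP0 with pairs of RPLP1 and RPLP2, and all 3 fell in knockout. RPLP1 had 1564 and 1505 in control, 1372 and 1278 in knockout and 1549 and 1579 in rescue (log2 -0.21, SE 0.055, limma adjusted p = 0.00721). RPLP2 had 560.0 and 532 in control, 501 and 417 in knockout and 554 and 562 in rescue (log2 -0.26, SE 0.071, limma adjusted p = 0.0110). RPLP1 did not pass without knockout replicate 2 (limma adjusted p = 0.0695). RPLP2 did not pass without that library (limma adjusted p = 0.194) or without control replicate 1 (0.129) or 2 (0.0663). Relative to the median member RPLP0 stayed low (log2 -0.53, limma adjusted p = 0.000108), whereas RPLP1 (-0.07, 0.149) and RPLP2 (-0.11, 0.224) did not pass.

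Some members are also known for roles outside the ribosome or from disease, and a few of these are given by name. RPL5 and RPL11, which with 5S ribosomal RNA bind MDM2, had log2 changes of -0.21 (limma adjusted p = 0.00625) and -0.09 (0.166). RPL5 did not pass under quantile normalization, with a log2 change of -0.01 (limma adjusted p = 0.770). RPS6, the substrate of S6 kinase, had 1365 and 1329.6 in control, 1213 and 1138 in knockout and 1402 and 1449 in rescue (log2 -0.20, limma adjusted p = 0.00978), and it did not pass without knockout replicate 2 (0.0902). RPS14 and RPS19, known from the 5q- syndrome and from Diamond-Blackfan anaemia, had log2 changes of -0.06 (limma adjusted p = 0.340) and -0.11 (0.116). Under quantile normalization RPS14 had a log2 change of 0.14 (limma adjusted p = 0.00920), the opposite sign.

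The 6 divergent or near-identical copies did not follow their namesakes to the same extent. RPL22L1 stood at 25.3% and 25.6% of RPL22 in control, 14.4% in both knockout libraries, and 22.6% and 21.9% in rescue. RPL22 itself fell by 0.18 on the log2 scale (limma adjusted p = 0.0121), with 148 and 143 in control and 128 and 127 in knockout, and it did not pass without either knockout library (0.0641 and 0.0787). RPL39L stood at 1.40% and 1.28% of RPL39 in control, 0.947% and 0.893% in knockout and 1.27% and 1.21% in rescue. In the other direction, RPL36AL stood at 25.4% and 27.5% of RPL36A in control, 34.1% in both knockout libraries and 27.7% and 28.3% in rescue. RPS27L stood at 2.72% and 2.76% of RPS27 in control and at 3.76% and 3.46% in knockout, with 2.90% and 2.83% in rescue. RPL26L1 stood at 1.497% and 1.444% of RPL26 in control, 2.21% and 1.78% in knockout and 1.57% and 1.40% in rescue. RPL7L1, a nucleolar assembly factor, changed least against RPL7, from 4.88% and 4.74% in control to 5.29% and 5.14% in knockout. In rescue it stood at 5.04% and 5.60%, above control in both libraries and in 1 of them above knockout. In each of the 6 pairs the knockout percentages lay outside the control range, below it in 2 and above it in 4. No such count was made for pairs of other genes. Of all genes tested singly, 25.1% lay below control and 43.4% above it with no overlap, so the count is given as a description. A percentage also rises where only the namesake falls. Reads shared between RPL36A and RPL36AL could be split wrongly between them.

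Rescue cells, which overexpressed METTL16 from before the guide, had higher levels of most members than knockout cells. Of the 81, 64 rose (79.0%), 0 fell and 17 did not pass (limma, adjusted p under 0.05), against 15.6% risen and 15.9% fallen of all genes tested. Without adjustment, 70 had a limma p under 0.05 upward and 0 downward, where 5366 of the 12734 genes tested had such a p in either direction. The median log2 change was 0.21, against -0.012 for all genes. By subunit, 40 of 51 large and 24 of 30 small subunit members rose, and the medians differed by 0.0037. Rescue lay above knockout with no overlap for 75 members (34.7% of all genes tested), below for 3 (38.1%), and 3 overlapped. Under quantile normalization 21 rose and 7 fell (22.1% and 22.3% of all genes). Fewer than 64 rose when either rescue library was left out. Those fits keep only 1 rescue library, and their counts are not set against those of all genes. Relative to the median member, which moved the median of all genes to -0.24, 9 members rose (5.91% of all genes tested) and 11 fell (60.3%). Both this comparison and that of knockout with control use the knockout libraries, so values low in knockout enter both.

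The members that stood lowest in knockout differed most here. The log2 change of rescue against knockout was 0.84 for RPL22L1 (SE 0.063, limma adjusted p = 7.22e-07), 0.79 for RPS12 (SE 0.053, 2.54e-07) and 0.68 for RPL13A (SE 0.052, 8.04e-07). It was 0.63 for RPLP0, 0.55 for RPL39L and 0.50 for RPL12, with limma adjusted p of 3.99e-06, 0.000151 and 1.91e-05. RPSA, a small subunit protein also known as the laminin receptor, had 607 and 562 in control, 521 and 513 in knockout and 648 and 668 in rescue, so that both rescue libraries lay above both control libraries. It rose by 0.35 against knockout (limma adjusted p = 0.000328). RPL36AL, RPL10A and RPS27L had log2 changes of -0.08, -0.07 and -0.04, and RPS15 of 0.11, and none passed (limma adjusted p = 0.277, 0.292, 0.696 and 0.123).

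Rescue and control cells differed little in these genes. Against control, 1 member rose, 0 fell and 80 did not pass (limma, adjusted p under 0.05; 0.228% and 0.055% of all genes tested). At an unadjusted limma p under 0.05, 11 were higher and 0 lower. Of the 12734 genes tested, 1463 had such a p in either direction. Relative to the median member 0 fell and 0 rose (0.0942% and 0.102% of all genes). The median log2 change was 0.058, where all genes had 0.061. Rescue lay above control with no overlap for 43 members (34.6% of all genes tested) and below for 1, RPL22L1 (5.33%), which had a log2 change of -0.13 (limma adjusted p = 0.451). The member that rose was RPS15, at 1.25 times control (log2 0.33, SE 0.053, limma adjusted p = 0.0141). Its call was lost without control replicate 1 (0.0824) or 2 (0.117), and under quantile normalization (log2 0.26, limma adjusted p = 0.135). RPS15 thus had its lowest values in control and its highest in rescue, unlike RPL36AL, RPL10A and RPS27L, whose means were highest in knockout.

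The members were also described by features of their genes. Of the 47 with a run of at least 8 pyrimidines at the start, 28 fell in knockout (59.6%) and 2 rose (4.26%), with a median log2 change of -0.17. Of the 18 with a shorter run, 7 fell (38.9%) and 2 rose (11.1%), with a median of -0.10. Among all genes tested 13.5% fell and 26.2% rose. The windows above show both kinds among members that fell and among members that rose: RPL12 fell with a run of 6, and RPL36AL rose with a run of 15. An annotated start need not be the start used in these cells.

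The spans of 28 members, called hosts here, hold small nucleolar RNA genes on the same strand in GENCODE 29. Of these hosts 17 fell (60.7%) and 0 rose in knockout, with a median of -0.18. The 53 other members had 28 fallen (52.8%) and 4 risen (7.55%), with a median of -0.14. Of the small nucleolar RNAs themselves, 46 in 26 hosts were tested, of which 6 fell (13.0%) and 4 rose (8.70%), with a median log2 change of -0.017; the fallen share is near the 13.5% of all genes tested, and the risen share is below their 26.2%. SNORD101, within the span of RPS12, had 5.25 and 8.70 in control, 20.7 and 12.4 in knockout and 9.02 and 12.8 in rescue. In knockout it lay above control (log2 1.13, limma adjusted p = 0.000935) while its host lay below. SNORA65, from RPL12, had 9.42 and 5.07 in control, 3.76 and 4.31 in knockout and 6.70 and 8.42 in rescue (log2 -0.66, limma adjusted p = 0.0106). Within 1 host, RPL4, SNORD16 fell by 1.85 on the log2 scale (limma adjusted p = 4.40e-07) and SNORD18A rose by 0.77 (0.00146). SNORD16 had 8.85 and 11.1 in control, 2.46 and 1.66 in knockout and 3.25 and 2.54 in rescue. It was also lower in rescue than in control (log2 -1.49, limma adjusted p = 0.000108). That difference did not pass once control replicate 1 (0.0582) or 2 (0.156) was left out, nor under quantile normalization (0.0519) or with centring on the median of all genes (0.0569). SNORD18A had 6.03 and 10.02 in control, 13.9 and 14.2 in knockout and 16.6 and 21.0 in rescue. The rescue libraries of neither RNA thus lay in the control range. SNORD18A was higher in rescue than in control (log2 1.16, limma adjusted p = 0.00273). Its difference did not pass under quantile normalization (limma adjusted p = 0.179), without a trend (0.0979) or with centring on the median of all genes (0.191). In RPL7A, SNORD36A fell by 0.74 (limma adjusted p = 0.000235) and SNORD36C rose by 1.21 (0.000161). SNORD36A had 81.9 and 58.9 in control, 41.8 and 40.4 in knockout and 64.3 and 53.03 in rescue. SNORD36C had 7.08 and 7.04 in control, 18.7 and 16.7 in knockout and 9.75 and 4.96 in rescue. Without control replicate 1, SNORD101 (limma adjusted p = 0.0749) and SNORA65 (0.157) did not pass, and SNORD18A did not under quantile normalization (0.0532). These short RNAs are far shorter than messenger RNAs and were recovered by a library method made for longer RNA.

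Protein partners outside the naming rule moved in different directions. RACK1, the scaffold protein on the head of the small subunit, had 783 and 749 in control, 442 and 417 in knockout and 771 and 787 in rescue. Its change (log2 -0.83, SE 0.053, limma adjusted p = 8.86e-08) was about that of RPS12. FAU, whose product is cut into a small subunit protein, rose by 0.19 (limma adjusted p = 0.0129). FAU did not pass without knockout replicate 1 (limma adjusted p = 0.210) or control replicate 2 (0.0542), or after centring on the median of all genes (0.102).

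Other messenger RNAs with a TOP start are mainly those of translation factors. In a list of 21 that holds both partners above, 12 fell in knockout, 1 rose and 8 did not pass, with a median log2 change of -0.20 (-0.066 under quantile normalization). These shares are 57.1% and 4.76%, against 13.5% and 26.2% of all genes tested. EIF3L, a subunit of initiation factor 3, fell by 0.38 (limma adjusted p = 0.000122) and NAP1L1, a nucleosome assembly protein, by 0.33 (0.000352). EIF4A2, an initiation helicase, fell by 0.32 (limma adjusted p = 0.000406). In rescue 14 of the 21 rose against knockout (66.7%) and 0 fell, where 15.6% of all genes tested rose and 15.9% fell. Of 12 noncoding hosts of small nucleolar RNAs with such starts, 5 fell (41.7%) and 0 rose in knockout, with a median of -0.17. Against knockout, 9 of these hosts rose in rescue (75%). Among them SNHG8 had 132 and 129 in control, 92.1 and 87.6 in knockout and 124 and 126 in rescue (log2 -0.53, limma adjusted p = 5.70e-06), and SNHG5 and GAS5 fell by 0.38 and 0.36.

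Of 13 regulators of TOP messenger RNAs, 7 fell (53.8%), 1 rose (7.69%) and 5 did not pass, with a median of -0.16. Among all genes tested 13.5% fell and 26.2% rose. LARP1, which binds the tract, had a log2 change of -0.18 (limma adjusted p = 0.0229). RPS6KB2 and MLST8, a ribosomal S6 kinase and a subunit of the mTOR complexes, fell by 0.40 and 0.36 (limma adjusted p = 0.00219 and 0.00202). EIF4EBP2, a translation repressor, rose by 0.22 (limma adjusted p = 0.0136). Without knockout replicate 1 or 2, LARP1 (limma adjusted p = 0.0763 and 0.117) and EIF4EBP2 (0.0714 and 0.0681) did not pass, nor did LARP1 without control replicate 1 (0.0600). In rescue against knockout 7 of the 13 rose (53.8%) and 0 fell, where 15.6% of all genes tested rose and 15.9% fell.

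Other factors carry ribosomal proteins to the nucleus or assemble them. Of 13 genes listed as chaperones and importins, 3 fell (23.1%) and 4 rose (30.8%) in knockout, with a median of -0.061. This list shares genes with the TOP list above, among them NAP1L1, which is counted as fallen in both. Among all genes tested these shares were 13.5% and 26.2%. IPO5, an import receptor, fell by 0.44 (limma adjusted p = 3.35e-05), whereas TSR2, a chaperone of RPS26, rose by 0.36 (0.000599). AAR2, counted among the risen of this list, is known from spliceosome assembly and not as a carrier of ribosomal proteins. Its log2 change was 0.39 (limma adjusted p = 0.00132). In rescue against knockout 4 of the 13 rose (30.8%) and 1 fell (7.69%), against 15.6% and 15.9% of all genes tested. Of 12 genes for late maturation and export of the 60S subunit, 6 fell (50%) and 1 rose (8.33%), with a median of -0.19. Against knockout, 7 of the 12 rose in rescue (58.3%) and 1 fell (8.33%). EFL1, the GTPase that releases EIF6, had 18.2 and 16.2 in control, 11.6 and 10.9 in knockout and 17.4 and 16.8 in rescue (log2 -0.57, limma adjusted p = 9.76e-05). Its partner SBDS went the other way, with 32.9 and 29.1 in control, 41.5 and 39.3 in knockout and 32.9 and 34.9 in rescue (log2 0.37, limma adjusted p = 0.00106). MDN1, the giant AAA protein that remodels the pre-60S particle, fell by 0.55 (limma adjusted p = 6.22e-05), and the median of the 12 was -0.297 without control replicate 2 and -0.122 without control replicate 1.

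For the 40S subunit, 3 of 11 maturation genes fell and 3 rose (27.3% each, against 13.5% and 26.2% of all genes), with a median of 0.0040. Against knockout, 4 rose in rescue (36.4%) and 2 fell (18.2%), where 15.6% and 15.9% of all genes tested did. CSNK1E and CSNK1D, both casein kinases, went in opposite directions, by -0.44 and 0.40 on the log2 scale (limma adjusted p = 0.000332 and 0.000985), and LTV1, an assembly factor of the head of the subunit, rose by 0.37 (0.000281).

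**Figure D4:**
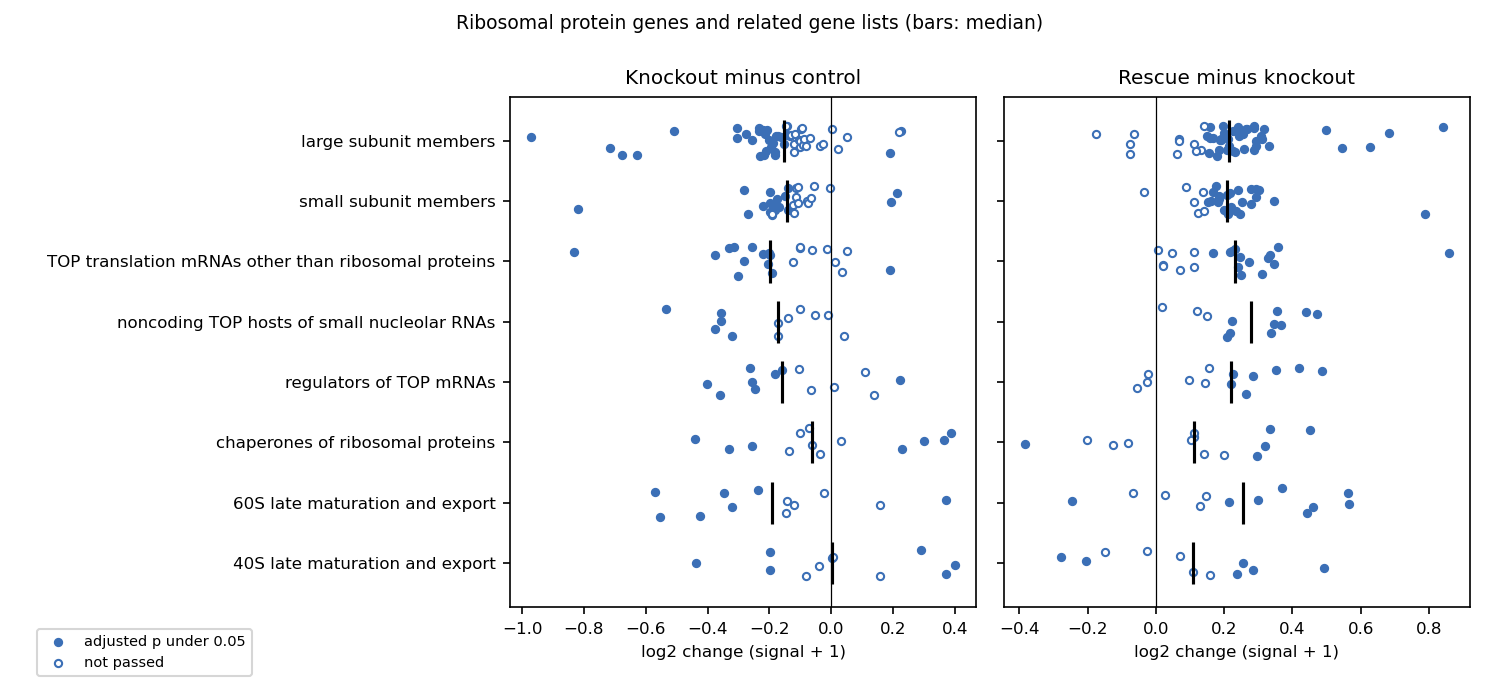
Log2 change of each gene of the large and small subunits and of 6 related lists, in knockout minus control (left) and rescue minus knockout (right), with the list median as a bar; filled points passed limma at an adjusted p under 0.05. Medians of both subunits and of the TOP translation list lie between -0.20 and -0.14 on the left, while the 40S list spreads to both sides of 0. These values are on the deposited scale; under quantile normalization 15 members rose and 22 fell in knockout.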

How the data were processed

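Transcript abundance was measured in 6 NOMO-1 libraries, 2 per group. Per the submitters' processing notes, the tools were STAR and RSEM with GRCh38; versions are not given in the sources used here. The deposited signal is 1 RSEM abundance per gene and library; no header says whether the authors gave TPM or FPKM. Groups came from the labels, and each column was matched by name. RPS9 and RPS18 were not analysed here. Some members, some related genes and the lists that rest on them are not reported here by name.

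The filter required that 2 or more libraries reach a signal of 1, which kept 12734 genes and left out 2325. limma 3.58.1 with a trend (R 4.3.3) was run on log2(signal + 1), all 6 libraries in 1 fit, with 3 residual and 11.0 prior degrees of freedom. Every p is two-sided; adjusted p is Benjamini-Hochberg over the 12734 genes, called under 0.05. A log2 change is on the log2(signal + 1) scale, which understates changes of low genes; ratios are of group means. The fit was tested on simulated data. The rest was done in Python 3.11.15 (pandas 2.3.3, numpy 2.4.6), and figures in matplotlib 3.10.9. GENCODE 29 gave gene positions for all 81 members and RefSeq GRCh38.p14 start windows for 65.

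Members, gene lists, tests and alternatives were chosen with earlier results of these data known. Named with values were up to 8 members per direction and comparison by adjusted p, and the 3 highest and 3 lowest. Named too were the divergent or near-identical copies, the stalk, RPL5, RPL11, RPS6, RPS14 and RPS19, and up to 4 genes per list. RPL13A's pseudogene, RPSAP58, the small nucleolar RNAs and members listed only by name were chosen after their values were seen. Alternatives covered scaling, pseudocount, filter, genes and samples fitted, trend, replicate block and each library left out.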

Additional observations from a re-analysis of the deposited data

How the results depend on the processing

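The 48 comparisons of named members that passed the test kept their direction and call in 755 of their results under 18 alternatives, lost the call in 101 and changed sign in 8. In knockout against control, 22 members fell and 15 rose under quantile normalization, 13 and 11 when centred on the median member (added after seeing the data), 18 and 2 without a trend, and 28 to 53 and 2 to 4 when 1 library was left out. In rescue against knockout, 21 rose and 7 fell under quantile normalization, 9 and 11 when centred on the median member, 37 rose without a trend, 1 fell with equal sums, and 33 to 67 rose and 0 to 1 fell with 1 library left out. In rescue against control, 0 rose under quantile normalization, either centring, equal sums and no trend. Among protein-coding genes only, 3 rose, where 206 of all 10759 genes in that fit rose. The call of RPS15 was lost in some fits that left out 1 library. Counts of members in this section without a share of all genes, here or above, are not set against all genes. Signs reversed in rescue against knockout when centred on the median member for RPL36A (-0.019), RPL7 (-0.00037), RPL5 (-0.027), RPL11 (-0.042) and RPS14 (-0.049), and under quantile normalization for RPL5 (-0.043), RPL11 (-0.0079) and RPS14 (-0.087). Centring on the median member moved the knockout median of the lists to -0.055 (TOP translation), -0.029 (noncoding hosts), -0.015 (regulators), 0.081 (chaperones), -0.049 (60S), 0.15 (40S) and -0.036 (member hosts), as its construction raises every value by the same step. Quantile normalization gave -0.066 for TOP translation and -0.029 for member hosts, and centring on all genes gave -0.27, -0.25 and, for chaperones, -0.13. Over the fits that left out 1 library the 60S median ran from -0.297 (without control replicate 2) to -0.122 (without control replicate 1). The noncoding hosts have no value among protein-coding genes only. The replicate numbers of the labels did not pair the libraries (correlations of their deviations -0.011, -0.048 and 0.10); with a replicate block 47 members fell and 5 rose in knockout, and 65 rose in rescue against knockout. The cause of these changes was not tested where none is given. With 2 libraries a group and no read totals, differences of a few percent between members were not resolved.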
